A study of Mus musculus with 18 samples.

Results

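The libraries described here are the 9 control libraries of a study of 18, all made from medullary thymic epithelial cells (mTECs) sorted from mice. The 3 Chd4 control libraries came from C57BL/6x129P2 mice homozygous for a floxed Chd4 allele and without Cre, so Chd4 had not been deleted. The 3 Fezf2-set WT and the 3 Aire-set WT libraries came from C57BL/6 mice labelled WT, which served as the controls of the Fezf2 KO and of the Aire KO mice. The other 9 libraries, from Chd4 cKO mice (Chd4 flox/flox with Foxn1-Cre, a driver active in thymic epithelium), Fezf2 KO mice and Aire KO mice, were used only in a second comparison at the end. Age and sex were not given in the sources used here, nor whether a library was 1 animal or a pool. Control libraries were taken by their column names, and genes by presence of the same autosomal gene ID in all 3 count tables. Of 49585 genes in the Aire and Fezf2 tables and 21969 in the Chd4 table, 21875 IDs were shared and 20737 of these were autosomal. After the filter on low counts 15024 were tested. The Chd4 control differed from WT in strain background, sequencing run and gene annotation at once, and these cannot be told apart in this comparison. The question was which mTEC transcripts held their level over all control groups and which did not.

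Medullary thymic epithelial cells present self-antigens to developing T cells and so shape tolerance. Mature mTECs carry much MHC class II and transcribe genes of many peripheral tissues, some of them through the transcriptional regulators Aire and Fezf2, while immature mTECs (mTEC-lo) make more of the basal keratins and of the chemokine Ccl21. Chd4 is the helicase subunit of the NuRD chromatin remodelling complex. Cells taken out of tissue by enzymatic digestion and sorting are known to switch on heat shock and immediate-early genes.

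The depth, as exon reads over all genes of a table, was 3571570 to 4178824 in the Chd4 control, 3935102 to 4501080 in the Fezf2-set WT and 4376914 to 4834213 in the Aire-set WT. The 21875 shared genes held all but 0.0104 to 0.0141% of these reads in the Chd4 control and all but 2.04 to 3.35% in WT. Library B of the Fezf2-set WT stood apart. Its median absolute log2 difference from the other Fezf2-set WT libraries was 0.589 and 0.604, while those libraries differed from each other by 0.233. Within the Chd4 control the range was 0.224 to 0.240, and within the Aire-set WT 0.260 to 0.279. Without library B, the Chd4 control differed from the Fezf2-set WT by 0.307 to 0.345 and from the Aire-set WT by 0.341 to 0.394. The WT groups, of 1 strain, run and annotation, differed from each other by 0.299 to 0.345 on the same measure. The summed level of 4 Y-linked genes was 157, 0.977 and 0.474 CPM (counts scaled to library size) in the Chd4 control, 1.15, 0.292 and 0.264 CPM in the Fezf2-set WT and 210, 14.2 and 225 CPM in the Aire-set WT. The libraries thus differed in Y-linked reads within and between groups, and the part of this in the autosomal results was not tested.

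The mTEC label was checked first on genes of thymic epithelium. Of 15 tested TEC identity genes, 8 were stable over the control groups in the sense defined in the next paragraph, beside 38.7% of all genes. In the Chd4 control 1 of them was lower, beside 2.9% of all genes. Keratin 8 (Krt8) had 2255, 2503 and 2561 CPM in the Chd4 control, 2736, 2503 and 2868 CPM in the Fezf2-set WT and 2810.4, 3187 and 2766 CPM in the Aire-set WT. The epithelial adhesion molecule Epcam had 608, 559 and 663 CPM in the Chd4 control, 601, 659.9 and 616 CPM in the Fezf2-set WT and 732, 706 and 703 CPM in the Aire-set WT. In both the Chd4 control overlapped the Fezf2-set WT and lay under all Aire-set WT values. Foxn1, the transcription factor that sets up thymic epithelium, had 229, 254 and 236 CPM in the Chd4 control, 254, 166 and 258 CPM in the Fezf2-set WT and 185, 24.8 and 155 CPM in the Aire-set WT. Library B of the Aire-set WT was low for Foxn1, and the log2 difference of 0.53 ± 0.40 (SE; adjusted p = 0.518) did not pass the test. Cldn3, a tight junction protein, had 59.8, 69.9 and 81.3 CPM in the Chd4 control, 97.3, 153 and 117 CPM in the Fezf2-set WT and 118, 159 and 116 CPM in the Aire-set WT. All its Chd4 control values lay under all WT values, and its log2 difference was -0.84 ± 0.19 (SE; adjusted p = 0.0249). Cldn3 did not pass without any 1 of the Chd4 control libraries, without library B of the Aire-set WT or against the Fezf2-set WT alone. Without library B of the Fezf2-set WT 2 TEC identity genes were higher and 3 lower. Over all genes, 858 of 15410 were higher and 1200 lower in that setting. Counts of every list without that library, here and below, stand beside these totals.

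A gene was called stable when the 95% intervals of its log2 differences between all 3 pairs of groups lay within a 2-fold change, and 5816 of 15024 genes (38.7%) were stable. Among those with a mean of at least 100 CPM, the smallest spread over the 9 libraries belonged to Eif2s1, a subunit of the translation initiation factor eIF2. It had 145, 137 and 143 CPM in the Chd4 control, 138, 136 and 139 CPM in the Fezf2-set WT and 139, 138 and 146 CPM in the Aire-set WT, an SD of 0.0368 on the log2 scale. Coro1b, an actin-binding coronin, had 202, 211 and 213 CPM in the Chd4 control, 213, 211 and 221 CPM in the Fezf2-set WT and 209, 218 and 223 CPM in the Aire-set WT. In both genes all groups overlapped. Next in order came Lpo, Ube2d3, Cct8, Vapa, Psmc3, Capzb, Atp5b and Srsf7, whose SDs of log2 CPM ran from 0.0538 to 0.0727. They include a ubiquitin-conjugating enzyme (Ube2d3), a chaperonin subunit (Cct8), a proteasome ATPase (Psmc3), an actin-capping protein (Capzb), an ATP synthase subunit (Atp5b) and a splicing factor (Srsf7). Lpo, a secreted peroxidase of milk and saliva, had 443, 426 and 433 CPM in the Chd4 control, 432, 451 and 436 CPM in the Fezf2-set WT and 479, 436 and 424 CPM in the Aire-set WT. This tissue-restricted gene held its level in every control library. Stability depended on level, with 65.9% of genes over 100 CPM stable, 49.3% of those at 10 to 100 CPM and 1.41% of those at 1 to 10 CPM.

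Of 13 tested MHC class I genes 12 were stable and none passed the test in either direction, with a median log2 difference of -0.293. In 4 of them all Chd4 control values lay under all WT values (background 11.6% in either direction), and 5 were lower without library B of the Fezf2-set WT. With exon length as an offset 4 were higher. H2-Q7, a class I gene outside the list that was picked after its values were seen, was lower at -0.75 and passed in 18 of 22 alternatives. Of 11 MHC class II genes 10 were stable and 1 was lower (background 2.9% lower), while 5 were lower against the Aire-set WT alone. Without library B of the Fezf2-set WT 1 was higher and 2 lower. Cd74, the invariant chain of MHC class II, had 31010, 26061 and 29152 CPM in the Chd4 control, 18717, 28411 and 19368 CPM in the Fezf2-set WT and 28560, 28043 and 23279 CPM in the Aire-set WT. The groups overlapped, and the log2 difference was 0.24 ± 0.15 (SE; adjusted p = 0.418). H2-Ab1, a class II beta chain, was the exception with 8309.8, 7825 and 11231 CPM in the Chd4 control, 10365, 16489 and 12596 CPM in the Fezf2-set WT and 18712, 19494 and 14473 CPM in the Aire-set WT. Its log2 difference was -0.74 ± 0.18 (SE; adjusted p = 0.0382), with the highest Chd4 control value above the lowest Fezf2-set WT value, and its exons spanned 1211 bases in the Chd4 table and 1637 in the WT tables. H2-Ab1 did not pass without library A or B of the Chd4 control, without library A or B of the Aire-set WT, with upper quartile normalization, with the exon length offset, with all WT libraries as 1 group or against the Fezf2-set WT alone. Of 25 commonly used reference genes 19 were stable, Actb, Ppia, Tbp and Ywhaz among them, and 1, Gapdh, passed the test (background 4.43%). Without library B of the Fezf2-set WT 6 of the reference genes were higher and 4 lower, and with exon length as an offset 7 were higher. That offset shifted the median over all genes to 0.232 on the log2 scale and called 2747 of 15023 genes higher. List counts under the offset hold this shift and are not particular to a list. The NuRD list, which holds Chd4, had 8 of 13 stable and none called. Of 20 cell cycle genes 11 were stable, Mki67 and Top2a among them, and 1, Pcna, was lower by the test (background 2.9% lower). Pcna did not pass without any 1 of the Chd4 control or Aire-set WT libraries or with exon length as an offset, and without library B of the Fezf2-set WT 3 cell cycle genes were higher and 3 lower. The same library left out made 1 NuRD gene higher, and the exon length offset made 6 higher. The stable counts of all lists stand beside 65.9% stable among all genes over 100 CPM and 49.3% at 10 to 100 CPM. No list was matched for level, so these counts do not show steadiness particular to a list.

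Chd4, the floxed gene, had 55.1, 65.7 and 58.3 CPM in the Chd4 control, 45.7, 143 and 47.9 CPM in the Fezf2-set WT and 36.8, 45 and 50.3 CPM in the Aire-set WT. Library B of the Fezf2-set WT was high, the other 5 WT libraries all lay under the Chd4 control, and the log2 difference of Chd4 was 0.02 ± 0.31 (SE; adjusted p = 0.981). Fezf2 had 553, 552 and 653 CPM in the Chd4 control, 714, 820.1 and 626 CPM in the Fezf2-set WT and 729, 624 and 804 CPM in the Aire-set WT. It was stable, with a log2 difference of -0.30 ± 0.15 (SE; adjusted p = 0.305). Aire had 1026, 1034 and 1008 CPM in the Chd4 control, 1420.2, 1214 and 1364 CPM in the Fezf2-set WT and 2224, 2088 and 2642 CPM in the Aire-set WT. The 3 groups did not overlap in Aire: the Chd4 control was lowest and the Aire-set WT highest. The log2 difference between Chd4 control and WT was -0.78 ± 0.14 (SE; adjusted p = 0.00654), and the one between the Fezf2-set WT and the Aire-set WT was -0.80 ± 0.15 (SE; adjusted p = 0.0335). Aire exons summed to 1938 bases in the Chd4 table and 3825 bases in the WT tables. With exon length as an offset the log2 difference of Aire turned to 0.20 (adjusted p = 0.314). Aire also missed the threshold without library A or B of the Chd4 control, with all 6 WT libraries as 1 group and against the Fezf2-set WT alone.

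Over all tested genes, 665 of 15024 (4.43%) passed an adjusted p under 0.05 in edgeR's quasi-likelihood test of the Chd4 control against the mean of the WT groups. In the Chd4 control 229 genes were higher (1.52%) and 436 lower (2.9%), of which 139 and 252 differed by at least 2-fold. In a recount of reads that match a single place many more genes were called higher, and they then outnumbered the lower ones. The balance of directions thus changed with the reads counted. Such reads were a larger share in the Chd4 table than in the WT tables, and the cause of the change was not tested. At an unadjusted p under 0.05 the count was 2851, and the median log2 difference over all genes was -0.00858. Set against each WT group alone in the same fit, 138 genes were higher and 380 lower than in the Fezf2-set WT (3.45%), and 181 higher and 351 lower than in the Aire-set WT (3.54%). These comparisons share the Chd4 control libraries. Between the WT groups, 146 genes were higher and 85 lower in the Fezf2-set WT than in the Aire-set WT (1.54%). Without library A or B of the Fezf2-set WT this count was 209 and 671 in that order, and without any other 1 library it was 2 to 88. All 3 Chd4 control values lay beyond all 6 WT values in 1743 genes (11.6%). Without library B of the Fezf2-set WT, 858 of 15410 genes were higher and 1200 lower, and these held all 229 and all 436. Without library A of the Chd4 control the counts were 71 higher and 135 lower, without B 47 and 91, and without C 93 and 208. Leaving out library A, B or C of the Aire-set WT gave 118 and 257, 118 and 232, and 119 and 231.

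**Figure D1:**
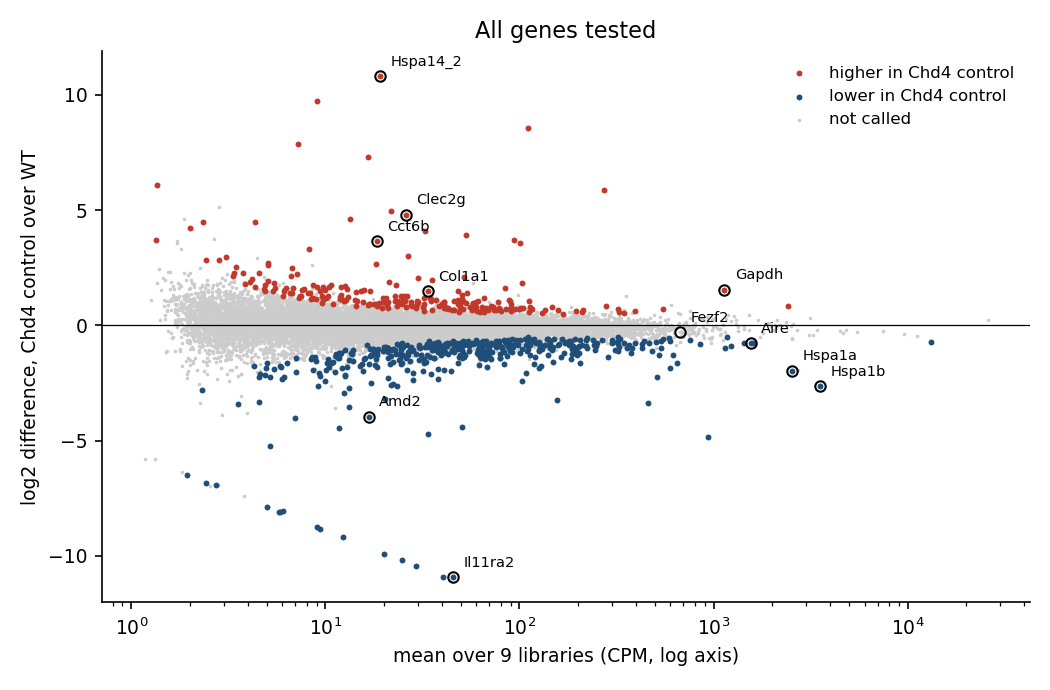
Log2 difference between Chd4 control and WT (vertical axis) against the mean CPM of the 9 libraries on a log axis (horizontal axis) for all tested genes, with called genes in colour and some of them named. The called genes lie on both sides, 229 higher and 436 lower, and most genes sit near 0. The height of genes at 0 reads in a group, such as Il11ra2 and Hspa14_2, depends on the prior count and is no measured fold.

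Most heat shock genes were lower in the Chd4 control. These chaperones, which refold or hold unfolded proteins, are induced by the heat shock factor Hsf1. Of 12 tested genes 8 were lower and none higher (background 2.9% lower), 11 of 12 had all Chd4 control values under all WT values (background 11.6% in either direction), and the median log2 difference was -0.899. None of the 12 was called between the WT groups, where the median was 0.106. The summed level of the 12 genes was 7588, 8866 and 7692 CPM in the Chd4 control, 17112, 17217 and 18177 CPM in the Fezf2-set WT and 19762, 17411 and 18377 CPM in the Aire-set WT. The promoters of 4 members are shown because they hold, or in 1 case lack, the core of the heat shock element that Hsf1 binds. Each runs from 250 bases before to 50 bases after the annotated start (RefSeq, GRCm38.p6), and capitals mark GAANNTTC or TTCNNGAA, each of which reads the same on both strands.
Hspa1b: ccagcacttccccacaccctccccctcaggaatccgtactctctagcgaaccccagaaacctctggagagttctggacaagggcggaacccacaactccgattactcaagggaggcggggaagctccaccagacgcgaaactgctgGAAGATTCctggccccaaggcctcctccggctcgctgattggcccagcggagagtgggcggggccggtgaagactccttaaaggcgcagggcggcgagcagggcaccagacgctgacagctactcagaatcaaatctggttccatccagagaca
Hspb1: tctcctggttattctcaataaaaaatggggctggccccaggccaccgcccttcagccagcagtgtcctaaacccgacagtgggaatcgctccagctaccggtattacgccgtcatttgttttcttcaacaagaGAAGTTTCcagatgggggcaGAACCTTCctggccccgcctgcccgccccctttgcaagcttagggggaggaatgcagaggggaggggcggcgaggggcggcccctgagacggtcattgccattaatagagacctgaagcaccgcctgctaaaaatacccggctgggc
Hsph1: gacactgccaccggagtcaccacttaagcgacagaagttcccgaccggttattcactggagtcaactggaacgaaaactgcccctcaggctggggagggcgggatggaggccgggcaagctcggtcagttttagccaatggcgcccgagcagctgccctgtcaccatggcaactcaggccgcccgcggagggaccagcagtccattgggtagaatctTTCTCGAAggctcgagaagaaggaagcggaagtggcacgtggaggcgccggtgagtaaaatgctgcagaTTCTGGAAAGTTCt
Dnajb1: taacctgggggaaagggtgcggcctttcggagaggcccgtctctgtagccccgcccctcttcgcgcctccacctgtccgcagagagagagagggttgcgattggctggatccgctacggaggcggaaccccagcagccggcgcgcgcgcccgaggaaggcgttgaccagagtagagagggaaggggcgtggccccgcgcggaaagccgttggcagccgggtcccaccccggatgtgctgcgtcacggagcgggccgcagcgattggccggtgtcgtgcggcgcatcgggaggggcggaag

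The windows are chr17:34959189-34959488 on the minus strand for Hspa1b, chr5:135887669-135887968 on the plus strand for Hspb1, chr5:149636287-149636586 on the minus strand for Hsph1 and chr8:83607925-83608224 on the plus strand for Dnajb1. Hspa1b held 1 match, Hspb1 2, Hsph1 3 and Dnajb1 0. Of the 12 heat shock genes 9 were in the promoter table, and GAANNTTC occurred in at least 1 window of 8 of them, 6 of the 7 called genes among these. The same letters occurred in 2582 of all 32851 promoter windows (7.86%). TTCNNGAA occurred in 3 of the 9 and in 2799 of all windows (8.52%). A match of letters is not a measured binding site, and genes with several windows had more chances of a match.

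The inducible Hsp70 genes differed most. Hspa1b (ENSMUSG00000090877, chromosome 17, 34956436 to 34959238) had 694, 903 and 759 CPM in the Chd4 control, 4441, 3438 and 5042 CPM in the Fezf2-set WT and 5923, 4903 and 5802 CPM in the Aire-set WT. Hspa1a (ENSMUSG00000091971, chromosome 17, 34969190 to 34972156) had 868, 1066 and 622 CPM in the Chd4 control, 3009, 1840.0 and 3302 CPM in the Fezf2-set WT and 4386, 3814 and 4059 CPM in the Aire-set WT. All Chd4 control values lay far under all WT values for both, with log2 differences of -2.64 ± 0.18 (SE; adjusted p = 1.97e-06) for Hspa1b and -1.97 ± 0.22 (SE; adjusted p = 0.000368) for Hspa1a. The genes are near-identical copies, so reads can be split between them and their single values are uncertain, while their sum is not affected by such a split. Dnajb1, the Hsp40 co-chaperone of Hsp70 and the gene without the motif in its windows, had 239, 329 and 239.6 CPM in the Chd4 control, 648, 633 and 759 CPM in the Fezf2-set WT and 696, 549.9 and 614 CPM in the Aire-set WT. Its groups did not overlap and its log2 difference was -1.27 ± 0.16 (SE; adjusted p = 0.00104). The small heat shock protein Hspb1 had 166, 205 and 223 CPM in the Chd4 control, 357, 889 and 470.0 CPM in the Fezf2-set WT and 332, 393 and 341 CPM in the Aire-set WT. Library B of the Fezf2-set WT was highest, all WT values lay above the Chd4 control, and the log2 difference was -1.19 ± 0.25 (SE; adjusted p = 0.0204).

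Among the other called chaperones, Hsp90aa1, the inducible Hsp90, had 617 to 758 CPM in the Chd4 control, against 1039.7 to 2167 CPM in the 6 WT libraries, a log2 difference of -0.99 ± 0.18 (SE; adjusted p = 0.00875). Hsph1, the Hsp110 nucleotide exchange factor of Hsp70, had 114 to 127 CPM in the Chd4 control, against 159 to 273 CPM in the 6 WT libraries, a log2 difference of -0.90 ± 0.16 (SE; adjusted p = 0.0087). Bag3, a co-chaperone that links Hsp70 to autophagy, had 32.5 to 38.1 CPM in the Chd4 control, against 50.8 to 78.1 CPM in the 6 WT libraries, a log2 difference of -0.90 ± 0.18 (SE; adjusted p = 0.0152). Dnaja1, a further Hsp40 protein, had 356 to 415 CPM in the Chd4 control, against 506 to 728 CPM in the 6 WT libraries, a log2 difference of -0.67 ± 0.14 (SE; adjusted p = 0.0188). None of these groups overlapped. The constitutive Hsp70 gene Hspa8 had 2455, 2664 and 2585 CPM in the Chd4 control, 3648, 3301 and 3456 CPM in the Fezf2-set WT and 3466, 3268 and 3112 CPM in the Aire-set WT. It was stable, with a log2 difference of -0.39 ± 0.12 (SE; adjusted p = 0.0865) that did not pass. In a recount of reads that match a single place, Hspa8 was called higher, so its direction changed with the reads counted. Hsp90ab1, the constitutive Hsp90, was stable too at -0.33 (adjusted p = 0.277), as was the mitochondrial chaperonin gene Hspd1 at -0.48 (adjusted p = 0.0578). Its partner Hspe1 had a log2 difference of -0.89 (adjusted p = 0.0552) and was neither called nor stable. The number of the 12 genes lower by the test was 11 without library B of the Fezf2-set WT, 11 against the Aire-set WT alone, 5 against the Fezf2-set WT alone, 3 without library A of the Chd4 control, 4 without its library B and 5 without its library C. With exon length as an offset 7 were lower and 1 higher.

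**Figure D2:**
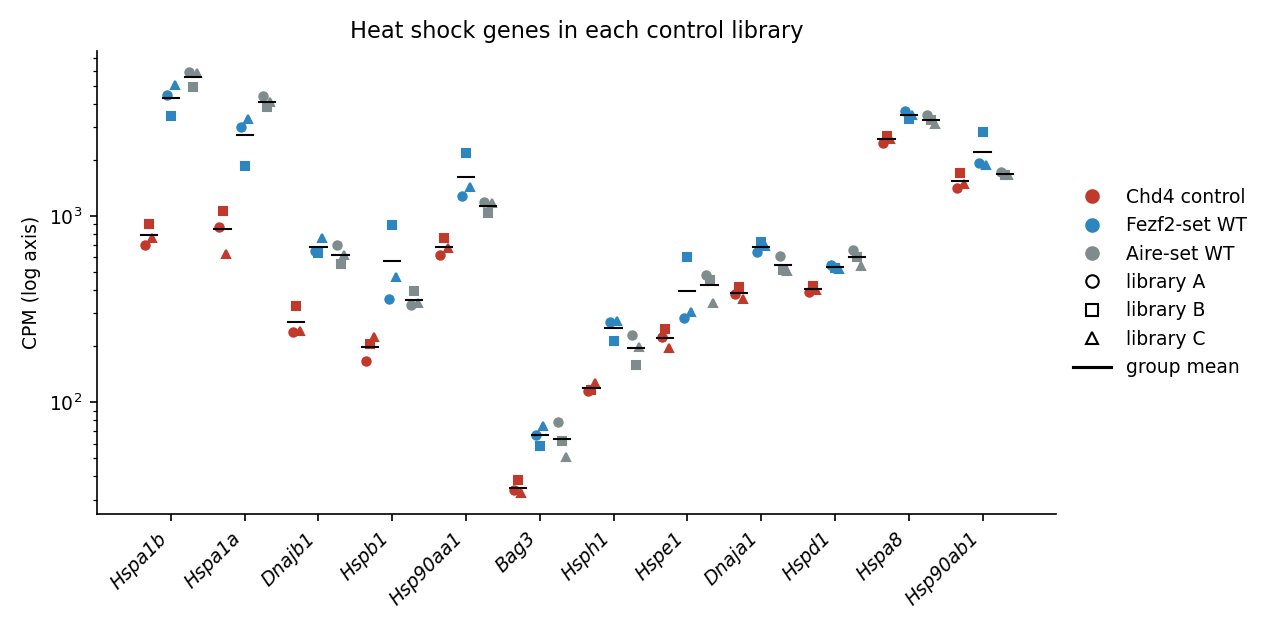
CPM on a log axis of heat shock genes in each control library, 1 point a library, a line at each group mean and Chd4 control left of Fezf2-set WT and Aire-set WT. The inducible Hspa1a and Hspa1b stand far lower in the 3 Chd4 control libraries than in the 6 WT libraries, while Hspa8 and Hsp90ab1 differ little.

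Other inducible genes were lower in part. Of 18 immediate-early genes, which respond within minutes to many stimuli, 4 were lower and 1 higher (background 2.9% lower and 1.52% higher). Their median log2 difference was -0.457, and 4 members were stable. Nr4a1, a nuclear receptor induced by antigen receptor and stress signals, had 34.7, 24.7 and 30.3 CPM in the Chd4 control, 101, 117 and 104 CPM in the Fezf2-set WT and 82.5, 52 and 48.6 CPM in the Aire-set WT. Klf2, a zinc finger factor, had 27.4, 26.4 and 20.6 CPM in the Chd4 control, 42.9, 88.6 and 60.3 CPM in the Fezf2-set WT and 60.6, 74.3 and 62.7 CPM in the Aire-set WT. In both all Chd4 control values lay under all WT values, with log2 differences of -1.44 ± 0.21 (SE; adjusted p = 0.00206) for Nr4a1 and -1.39 ± 0.23 (SE; adjusted p = 0.00526) for Klf2. Atf3, a stress-induced factor, had a log2 difference of -0.86 ± 0.15 (SE; adjusted p = 0.00812), and Dusp1, a MAP kinase phosphatase, one of -0.64 ± 0.15 (SE; adjusted p = 0.0353). Fosb, an AP-1 subunit, had 31.9, 60.6 and 48.3 CPM in the Chd4 control, 32.8, 74.6 and 35.7 CPM in the Fezf2-set WT and 11.3, 10.1 and 10.9 CPM in the Aire-set WT. Fosb was higher by the test at 1.05 ± 0.27 (SE; adjusted p = 0.0453), but the Chd4 control overlapped the Fezf2-set WT, and the WT groups differed by 2.14 ± 0.34 (SE; adjusted p = 0.0209). Fos, for comparison, had 499 to 634 CPM in the Chd4 control, against 433 to 939 CPM in the 6 WT libraries, a log2 difference of -0.17 ± 0.16 (SE; adjusted p = 0.627). Egr1 had a log2 difference of -0.12 ± 0.20 (SE; adjusted p = 0.79). Dusp1 passed in 10 of 22 alternatives, and neither it nor Fosb passed when any 1 library other than B of the Fezf2-set WT was left out. Atf3 did not pass without library A of the Chd4 control, nor Klf2 against the Fezf2-set WT alone. For the whole list, 2 were lower without library A of the Chd4 control and 3 without its library B or C, none higher. Without library B of the Fezf2-set WT 3 were higher and 8 lower, beside 858 higher and 1200 lower of 15410 genes in all.

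Of 14 NF-kB pathway genes 2 were lower (background 2.9%), none was higher and 9 were stable. Traf1, a signalling adaptor that NF-kB itself induces, had 106, 88.7 and 79.2 CPM in the Chd4 control, 194, 161 and 179 CPM in the Fezf2-set WT and 239, 257 and 219 CPM in the Aire-set WT. The groups did not overlap and the log2 difference was -1.18 ± 0.15 (SE; adjusted p = 0.00106), which did not pass with exon length as an offset. Traf1 exons summed to 4048 bases in the Chd4 table and 7553 in the WT tables. Rel, an NF-kB subunit, differed by -0.80 ± 0.19 (SE; adjusted p = 0.0367). Rel did not pass when any 1 library other than B of the Fezf2-set WT was left out, nor against the Fezf2-set WT alone, and without that library B 5 NF-kB genes were lower. The following genes belong to no list used here and were picked after their values were seen, from those that passed under every alternative. Tnf, an inflammatory cytokine, had 37.7, 32 and 37.9 CPM in the Chd4 control, 98, 94.1 and 78 CPM in the Fezf2-set WT and 82.5, 63.7 and 98.1 CPM in the Aire-set WT. Cxcl1, a neutrophil chemokine, had 71.6, 76 and 67.8 CPM in the Chd4 control, 209.7, 201 and 159 CPM in the Fezf2-set WT and 129.7, 111 and 113 CPM in the Aire-set WT. Cxcl2, its close relative, had 101, 95.8 and 103 CPM in the Chd4 control, 273, 316 and 265 CPM in the Fezf2-set WT and 202, 218 and 215 CPM in the Aire-set WT. In Tnf, Cxcl1 and Cxcl2 every Chd4 control value lay under every WT value, with log2 differences of -1.25 ± 0.18 (SE; adjusted p = 0.00203), -1.06 ± 0.15 (SE; adjusted p = 0.00203) and -1.30 ± 0.14 (SE; adjusted p = 0.000236) in that order. Id3, an inhibitor of bHLH factors, had 32.2 to 71.3 CPM in the Chd4 control, against 109 to 272 CPM in the 6 WT libraries, a difference of -1.74 ± 0.28 (SE; adjusted p = 0.0043), and Gadd45g, a stress-response gene, had 164 to 192 CPM in the Chd4 control, against 313 to 449 CPM in the 6 WT libraries, a difference of -1.07 ± 0.17 (SE; adjusted p = 0.00475).

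Of 19 interferon-stimulated genes 5 were higher (background 1.52%), none was lower and 8 were stable, with a median log2 difference of 0.366. Their summed level was 3420.4, 3483 and 3265 CPM in the Chd4 control, 3092, 3485 and 3095 CPM in the Fezf2-set WT and 2842, 2959 and 2628 CPM in the Aire-set WT. Ifit3, an antiviral protein that binds viral RNA complexes, had 105, 123 and 124 CPM in the Chd4 control, 77.3, 78.7 and 75.6 CPM in the Fezf2-set WT and 73.7, 88.8 and 69.1 CPM in the Aire-set WT. The Chd4 control lay above all WT libraries, and the log2 difference was 0.61 ± 0.14 (SE; adjusted p = 0.0279), within the margin that also made Ifit3 stable. Irf7, the transcription factor that amplifies type I interferon, had 238 to 277 CPM in the Chd4 control, against 126 to 204 CPM in the 6 WT libraries, a log2 difference of 0.62 ± 0.16 (SE; adjusted p = 0.0459). Ifi44 differed by 1.13 ± 0.28 (SE; adjusted p = 0.0375), and Oasl2, of the oligoadenylate synthetase family, by 0.63 ± 0.16 (SE; adjusted p = 0.0398). The remaining called gene, Gbp3, an interferon-induced GTPase, differed by 0.98 ± 0.25 (SE; adjusted p = 0.0465). All of these were near the threshold: none of the 19 passed without library A or B of the Chd4 control, without library A or C of the Aire-set WT or against the Fezf2-set WT alone, and 1 passed without library C of the Chd4 control. Relatives of Oasl2 outside the list, picked after their values were seen, went both ways. Oasl1 was lower at -1.23 and passed in all 22 alternatives that tested it. Oas3 was higher at 1.003 and passed in 15 of 22.

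Genes of immature mTECs were higher in part. Of 12 mTEC-lo genes 3 were higher and none lower (background 1.52% higher), with a median log2 difference of 0.353. Krt5, a basal keratin, had 765, 717 and 736 CPM in the Chd4 control, 364, 478 and 418 CPM in the Fezf2-set WT and 506, 541 and 389 CPM in the Aire-set WT. All Chd4 control values lay above all WT values, and the log2 difference was 0.72 ± 0.15 (SE; adjusted p = 0.0168). Pdpn, the membrane glycoprotein podoplanin, had 15.9, 19.8 and 17.1 CPM in the Chd4 control, 5.05, 9.65 and 5.29 CPM in the Fezf2-set WT and 6.47, 7.5 and 2.73 CPM in the Aire-set WT. Its groups did not overlap either, and it differed by 1.53 ± 0.32 (SE; adjusted p = 0.0201). Lifr, the receptor of leukemia inhibitory factor, had 75.7, 70.1 and 63.5 CPM in the Chd4 control, 28.5, 15.8 and 22.2 CPM in the Fezf2-set WT and 53.2, 71.2 and 44.8 CPM in the Aire-set WT. The Chd4 control overlapped the Aire-set WT in Lifr, and the difference of 0.98 ± 0.20 (SE; adjusted p = 0.0168) passed the test. The keratins Krt14 and Krt17 were stable, at 0.31 (adjusted p = 0.295) and 0.10 (adjusted p = 0.724). Ccl21a, the chemokine of mTEC-lo cells, had 1564 to 2120.1 CPM in the Chd4 control, against 683 to 2364 CPM in the 6 WT libraries, a log2 difference of 0.45 ± 0.27 (SE; adjusted p = 0.388), and it has near-identical copies. Of 14 mTEC maturation genes 1 was higher and 1 lower (background 1.52% higher and 2.9% lower). Fscn1, an actin-bundling protein, was higher at 0.56 ± 0.14 (SE; adjusted p = 0.0414), and Aire was lower. Stable were 6, among them Ctss, a protease of the class II pathway, at -0.16 (adjusted p = 0.635). Without library A or B of the Chd4 control none of the mTEC-lo genes passed, without its library C 1 passed, and against the Fezf2-set WT alone 1 passed. Fscn1 did not pass when any 1 library other than B of the Fezf2-set WT was left out. For the mTEC-lo genes, without library B of the Fezf2-set WT 6 were higher, beside 858 of 15410 genes in all.

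**Figure D3:**
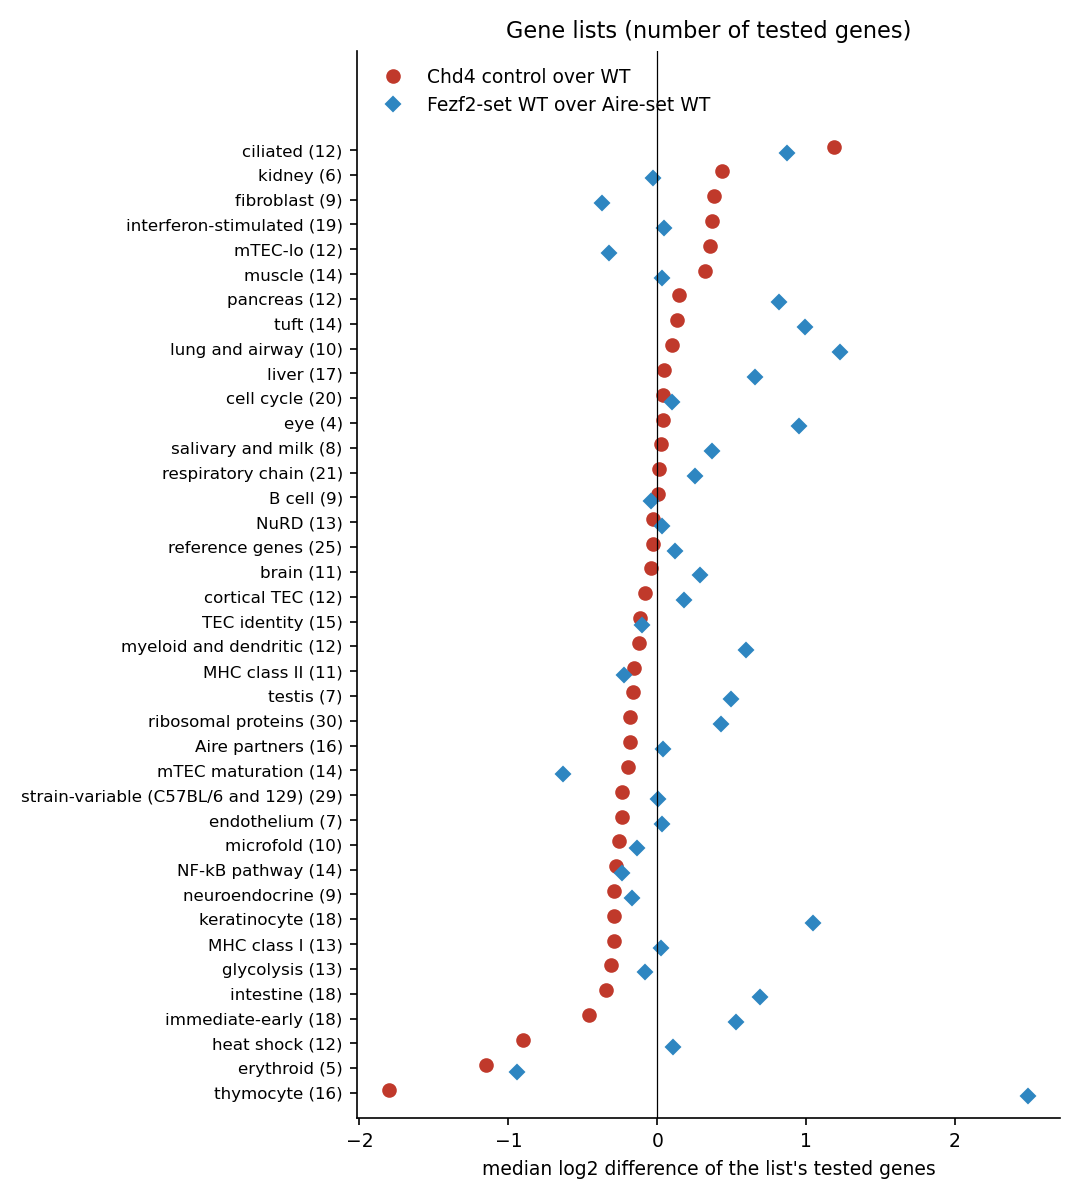
Median log2 difference of the tested members of each gene list, with circles for Chd4 control over WT and diamonds for Fezf2-set WT over Aire-set WT. Heat shock genes lie low in the first comparison and near 0 in the second, while thymocyte genes lie at -1.80 in the first and at 2.49 in the second.

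Thymocyte genes differed between the WT groups as well. Of 16 tested genes 9 were lower in the Chd4 control and none higher (background 2.9% lower), with a median log2 difference of -1.8. However, 11 were higher in the Fezf2-set WT than in the Aire-set WT (background 1.54% in either direction). The summed level of all 16 was 210.5, 214 and 223 CPM in the Chd4 control, 1217, 1166 and 720.5 CPM in the Fezf2-set WT and 238, 279 and 368 CPM in the Aire-set WT. Dntt, the terminal transferase of developing T cells, had 7.83, 9.53 and 8.53 CPM in the Chd4 control, 128, 115 and 67.2 CPM in the Fezf2-set WT and 5.55, 12.7 and 13.9 CPM in the Aire-set WT. Cd8a, a co-receptor, had 5.59, 5.62 and 5.45 CPM in the Chd4 control, 95.9, 75.1 and 42.8 CPM in the Fezf2-set WT and 3.01, 9.32 and 10.4 CPM in the Aire-set WT. In both the Fezf2-set WT was high in every library while the Chd4 control and the Aire-set WT overlapped. Dntt differed by -1.94 ± 0.31 (SE; adjusted p = 0.0043) between Chd4 control and WT, and by 3.28 ± 0.33 (SE; adjusted p = 0.00155) between the WT groups. Rag2, of the recombinase that joins antigen receptor segments, had 0, 0.489 and 0 CPM in the Chd4 control, 16.1, 12.3 and 4.76 CPM in the Fezf2-set WT and 0, 0.517 and 1.49 CPM in the Aire-set WT. Rag2 reads were thus 0 in libraries A and C of the Chd4 control and in library A of the Aire-set WT, and its difference of -3.80 ± 1.09 (SE; adjusted p = 0.0703) did not pass. The number of thymocyte genes lower by the test was 2 without library A of the Chd4 control, 2 without its library B and 6 without its library C. It was 0 with all 6 WT libraries as 1 group. Against the Aire-set WT alone 1 of the thymocyte genes was lower and the median was -0.336. In bulk RNA, fewer cells of a type and less RNA per cell cannot be told apart.

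Ciliated cell genes went the other way. Of 12 tested genes 4 were higher in the Chd4 control and none lower (background 1.52% higher), with a median log2 difference of 1.19. Between the WT groups 2 were higher in the Fezf2-set WT (background 1.54% in either direction), with a median of 0.871. The summed level was 253, 282 and 323 CPM in the Chd4 control, 186, 353 and 230.4 CPM in the Fezf2-set WT and 132, 117 and 135 CPM in the Aire-set WT. Ccno, which drives centriole amplification for multiple cilia, had 18.2, 34.9 and 33.2 CPM in the Chd4 control, 11, 19.9 and 15.3 CPM in the Fezf2-set WT and 7.4, 8.54 and 4.71 CPM in the Aire-set WT. The Chd4 control overlapped the Fezf2-set WT in Ccno, and the log2 difference was 1.49 ± 0.27 (SE; adjusted p = 0.00973). Dnah5, an outer-arm dynein chain, had 19.6, 17.1 and 22.3 CPM in the Chd4 control, 7.8, 7.6 and 11.9 CPM in the Fezf2-set WT and 9.25, 7.76 and 9.91 CPM in the Aire-set WT. Its groups did not overlap, and it differed by 1.12 ± 0.24 (SE; adjusted p = 0.0201). The axonemal factors Ccdc40 and Ccdc39 differed by 1.28 ± 0.29 (SE; adjusted p = 0.0278) and 1.66 ± 0.40 (SE; adjusted p = 0.0346). Foxj1, the regulator of motile cilia, had a log2 difference of 0.82 ± 0.22 (SE; adjusted p = 0.0568) and did not pass, and the dynein Dnah9 was stable at 0.10 (adjusted p = 0.866). The count of higher ciliated genes was 9 without library B of the Fezf2-set WT, beside 858 of 15410 genes in all. It was 1 without library A of the Chd4 control and 0 without its library B or C. It was 2 without library B or C of the Aire-set WT and 0 against the Fezf2-set WT alone.

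**Figure D4:**
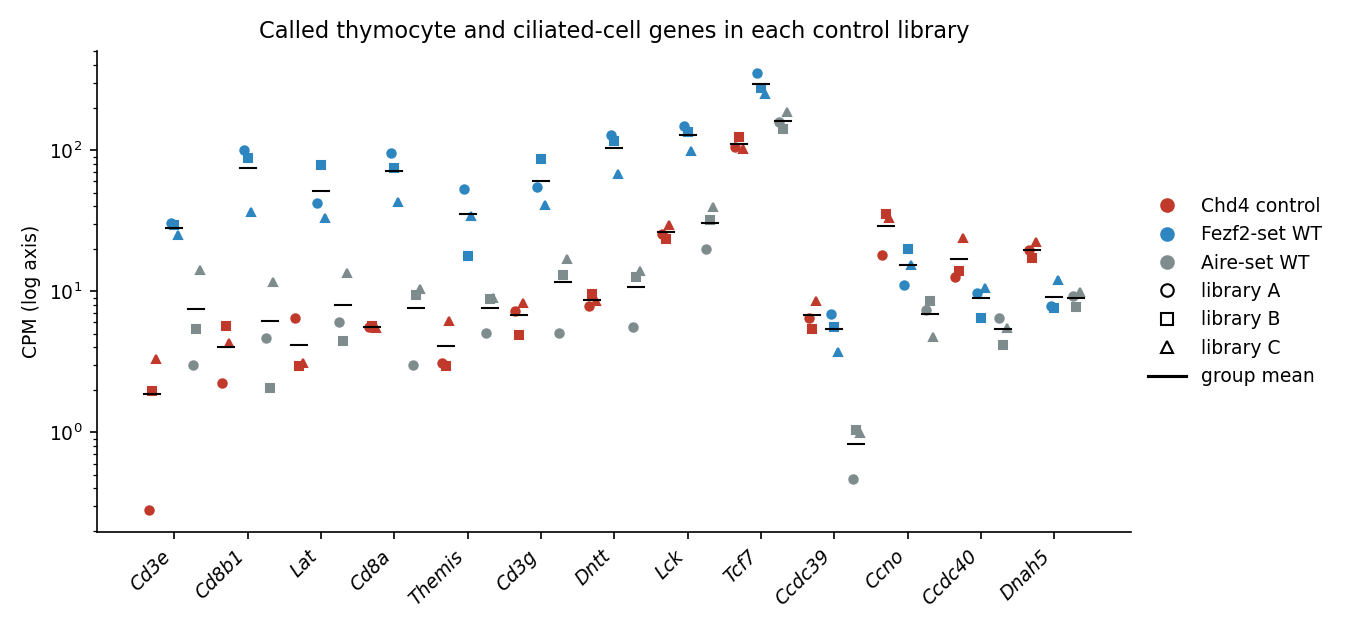
CPM on a log axis of the called thymocyte and ciliated cell genes in each control library, 1 point a library with a line at the group mean, Chd4 control left of Fezf2-set WT and Aire-set WT. Dntt stands at 128, 115 and 67.2 CPM in the Fezf2-set WT, above every library of the other groups, and Ccno is lowest in the Aire-set WT, while the direction of Tcf7 turned in a recount of reads that match a single place.

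Of the other cell types a sorted mTEC sample could hold, fibroblast genes had 2 of 9 members higher and none lower (background 1.52% higher). Their summed level was 328, 384 and 327 CPM in the Chd4 control, 281, 213 and 243 CPM in the Fezf2-set WT and 351, 319 and 296 CPM in the Aire-set WT. Col1a1, a fibrillar collagen chain, had 47.8, 61.8 and 66.1 CPM in the Chd4 control, 23.6, 20.5 and 24.6 CPM in the Fezf2-set WT and 22, 14.2 and 21.8 CPM in the Aire-set WT. Every Chd4 control value of Col1a1 lay above every WT value, and the log2 difference was 1.48 ± 0.19 (SE; adjusted p = 0.000789). Fbn1, a microfibril protein, had 42.5 to 50.5 CPM in the Chd4 control, against 14.3 to 35.7 CPM in the 6 WT libraries, a difference of 1.03 ± 0.26 (SE; adjusted p = 0.0437), and did not pass without any 1 of the Chd4 control or Aire-set WT libraries, without library A of the Fezf2-set WT, with all WT libraries as 1 group or against the Fezf2-set WT alone. Acta2, Tgfbi, Igfbp5 and Slc46a2 belong to no list used here and were picked after their values were seen, from the genes that passed under every alternative. They are assigned to no cell type here. Acta2, smooth muscle actin, had 133 to 144 CPM in the Chd4 control, against 52.3 to 93.9 CPM in the 6 WT libraries, a difference of 1.10 ± 0.18 (SE; adjusted p = 0.00534). Tgfbi, a secreted matrix protein induced by TGF-beta, had 87.7 to 118 CPM in the Chd4 control, against 31 to 63.7 CPM in the 6 WT libraries, a difference of 1.18 ± 0.17 (SE; adjusted p = 0.00229). Igfbp5, which binds insulin-like growth factors, had 127 to 135 CPM in the Chd4 control, against 57.6 to 88.5 CPM in the 6 WT libraries, a difference of 0.94 ± 0.15 (SE; adjusted p = 0.00493). Slc46a2, a transporter known from thymic stroma, had 159 to 190.3 CPM in the Chd4 control, against 71.1 to 109 CPM in the 6 WT libraries, a difference of 1.05 ± 0.15 (SE; adjusted p = 0.00198). None of these groups overlapped. B cell genes summed to 94.2, 83.8 and 86.5 CPM in the Chd4 control, 87.2, 132 and 96 CPM in the Fezf2-set WT and 83, 86.2 and 92.2 CPM in the Aire-set WT, and myeloid and dendritic genes to 1164, 1181 and 1344 CPM in the Chd4 control, 1283, 1662 and 1185 CPM in the Fezf2-set WT and 1227, 1506 and 1392 CPM in the Aire-set WT, with none called in either list. Erythroid genes summed to 143, 174 and 96.2 CPM in the Chd4 control, 149, 332 and 169 CPM in the Fezf2-set WT and 267, 749 and 692 CPM in the Aire-set WT. The beta globin Hbb-bs, which has a near-identical copy, had 36.1, 36.9 and 9.24 CPM in the Chd4 control, 48.6, 73.7 and 41.3 CPM in the Fezf2-set WT and 112, 349 and 268 CPM in the Aire-set WT. It differed by -2.07 ± 0.44 (SE; adjusted p = 0.0204) and also between the WT groups, by -2.16 ± 0.46 (SE; adjusted p = 0.0437). Between Chd4 control and WT, Hbb-bs did not pass without any 1 of the Chd4 control libraries, without library B of the Aire-set WT or against the Fezf2-set WT alone.

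Of genes known from peripheral tissues, none was called between Chd4 control and WT (background 4.43%) among 18 keratinocyte, 17 liver, 14 muscle, 14 tuft, 12 pancreas, 11 brain, 10 lung and airway, 9 neuroendocrine or 7 testis genes. These counts moved with the setting, as did those over all genes, with 858 of 15410 higher and 1200 lower without library B of the Fezf2-set WT. Of the keratinocyte genes 6 were lower without library B of the Fezf2-set WT, 4 without its library A, 2 without its library C and 6 with DESeq2. Without library B of the Fezf2-set WT 3 liver genes were higher, and 3 tuft genes were higher and 1 lower. Of 18 intestinal genes 2 were lower (background 2.9%). Prap1, a secreted acidic protein, had 70.4 to 90.8 CPM in the Chd4 control, against 132 to 321 CPM in the 6 WT libraries, a log2 difference of -1.05 ± 0.23 (SE; adjusted p = 0.0245). Lgals4, a galectin, had 42.2 to 62.8 CPM in the Chd4 control, against 53.6 to 170.2 CPM in the 6 WT libraries, a difference of -0.92 ± 0.22 (SE; adjusted p = 0.0327). None of the 18 intestinal genes passed without any 1 of the Chd4 control libraries or without library B or C of the Aire-set WT, and Lgals4 did not pass with exon length as an offset or against the Aire-set WT alone. Csn2, the milk protein beta-casein and a tissue-restricted antigen in the thymus, had 1062, 961 and 891 CPM in the Chd4 control, 1396, 1424 and 1285 CPM in the Fezf2-set WT and 2156, 1892 and 1912 CPM in the Aire-set WT. The groups did not overlap, and Csn2 differed by -0.76 ± 0.13 (SE; adjusted p = 0.00649). Its exons summed to 1346 bases in the Chd4 table and 5655 in the WT tables, and with exon length as an offset the sign turned to 1.31 (adjusted p = 1.72e-05). Csn2 also missed the threshold without library B of the Chd4 control and against the Fezf2-set WT alone. Keratinocyte genes, by contrast, had 8 of 18 members higher in the Fezf2-set WT than in the Aire-set WT (background 1.54% in either direction), with a median of 1.05. Their summed level was 1444, 1609 and 1773 CPM in the Chd4 control, 2189.7, 3675 and 2669 CPM in the Fezf2-set WT and 1526, 1656 and 1567 CPM in the Aire-set WT. For these genes the Chd4 control lay nearer to the Aire-set WT.

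A list of 29 tested genes known to vary between the strain backgrounds was examined because these differed. Of these 2 were lower and none higher (6.9% called, beside 4.43% of all genes), and 10 were stable, beside 38.7% of all genes. Both shares rest on 29 genes not matched for level, were not tested, and do not set the list apart. Cd244, a receptor of natural killer cells in the Slam gene cluster, had 1.96, 1.22 and 2.84 CPM in the Chd4 control, 10.8, 9.65 and 10.8 CPM in the Fezf2-set WT and 17.6, 13.2 and 14.6 CPM in the Aire-set WT. Slamf1, of the same cluster, had 11.7, 12.9 and 9.48 CPM in the Chd4 control, 26.2, 20.8 and 18.2 CPM in the Fezf2-set WT and 24, 40.9 and 25.3 CPM in the Aire-set WT. Both lay lower in all Chd4 control libraries, with log2 differences of -2.62 ± 0.34 (SE; adjusted p = 0.0011) for Cd244 and -1.17 ± 0.25 (SE; adjusted p = 0.0214) for Slamf1. Cd244 passed under every alternative in which it was tested. Slamf1 exons summed to 2693 bases in the Chd4 table and 6156 in the WT tables, and with exon length as an offset its difference was 0.025 (adjusted p = 0.96). Slamf1 also did not pass without any 1 of the Chd4 control libraries or against the Fezf2-set WT alone. Casp1, Casp4, Ide and Ly6a were among the stable members.

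Genes around the floxed allele were set apart, since the Chd4 control alone carried it. Chd4 lies on chromosome 6 from 125095981 to 125130591 (GRCm38). Within 5 Mb of it 8 of 106 tested genes were called (7.55%, 4 higher and 4 lower), within 10 Mb 6.86%, within 20 Mb 7.17% and on the whole chromosome 6.6%, where the other autosomes ran from 2.9 to 5.75%. Without Gapdh, whose direction is uncertain, 7 of 105 were called within 5 Mb (6.67%, 3 higher and 4 lower) and 6.48% on the chromosome. Of the 665 calls, 78 (33 higher, 45 lower) kept call and direction under each of the 23 alternatives in which they were tested, 0.519% of tested genes. Gapdh is among these, and it alone of them lost its call in a recount of reads that match a single place. Within 25 Mb of Chd4 these were 9 of 305 (2.95%), and on the whole chromosome 11 of 773 (1.42%), where the other autosomes ran from 0 to 1.12%. Without Gapdh 77 calls were kept (32 higher, 45 lower), 8 of 304 within 25 Mb (2.63%) and 10 of 772 on the chromosome (1.3%). The 25 Mb distance was chosen after the values were seen. No test was made of these shares, and neighbouring genes are not independent.

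Clec2g, a C-type lectin-like gene 3.85 Mb from Chd4, had 57.9, 86.2 and 74.4 CPM in the Chd4 control, 3.9, 2.34 and 1.06 CPM in the Fezf2-set WT and 3.47, 1.29 and 3.22 CPM in the Aire-set WT. Hebp1, a heme-binding protein gene 10.1 Mb away, had 203, 198 and 378 CPM in the Chd4 control, 15.8, 46.2 and 11.4 CPM in the Fezf2-set WT and 15.3, 19.9 and 22.3 CPM in the Aire-set WT. Rerg, a Ras-like growth inhibitor further along the chromosome, had 12.9, 17.1 and 31.8 CPM in the Chd4 control, 2.29, 0.585 and 3.44 CPM in the Fezf2-set WT and 2.31, 1.03 and 2.48 CPM in the Aire-set WT. In all of these each Chd4 control library stood above every WT library by a wide margin, with log2 differences of 4.80 ± 0.30 (SE; adjusted p = 1.19e-06) for Clec2g, 3.59 ± 0.34 (SE; adjusted p = 9.35e-05) for Hebp1 and 3.32 ± 0.42 (SE; adjusted p = 0.000927) for Rerg. Plcz1, a phospholipase of sperm, had 32.1 to 53.6 CPM in the Chd4 control, against 2.05 to 10.6 CPM in the 6 WT libraries, a difference of 2.64 ± 0.29 (SE; adjusted p = 0.0003). Chl1, a neural cell adhesion molecule, had 36.5 to 48.1 CPM in the Chd4 control, against 8.32 to 17.6 CPM in the 6 WT libraries, a difference of 1.75 ± 0.24 (SE; adjusted p = 0.00153). Arntl2, a clock transcription factor, had 25.2 to 28.7 CPM in the Chd4 control, against 7.02 to 13.2 CPM in the 6 WT libraries, a difference of 1.49 ± 0.21 (SE; adjusted p = 0.00169). Clec12b, an inhibitory lectin receptor, was lower, with 5.03, 2.44 and 4.03 CPM in the Chd4 control, 14.2, 19.9 and 13.5 CPM in the Fezf2-set WT and 21.3, 17.6 and 15.9 CPM in the Aire-set WT and a log2 difference of -2.15 ± 0.31 (SE; adjusted p = 0.00203). Of the other called genes within 5 Mb, Lrrc23, of the ciliary radial spokes, differed by 1.87 ± 0.26 (SE; adjusted p = 0.00198), Vamp1, a vesicle fusion protein, by -1.67 ± 0.28 (SE; adjusted p = 0.00562) and Cd27, a lymphocyte receptor, by -2.01 ± 0.38 (SE; adjusted p = 0.0117). Lrrc23 and Cd27 also differed between the WT groups, by 1.87 (adjusted p = 0.0311) and 1.88 (adjusted p = 0.0367). Lrrc23 did not pass with all WT libraries as 1 group or against the Fezf2-set WT alone. Vamp1 did not pass with exon length as an offset or without library B of the Chd4 control. Cd27 did not pass against the Aire-set WT alone, with all WT libraries as 1 group, nor without library B or C of the Chd4 control.

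**Figure D5:**
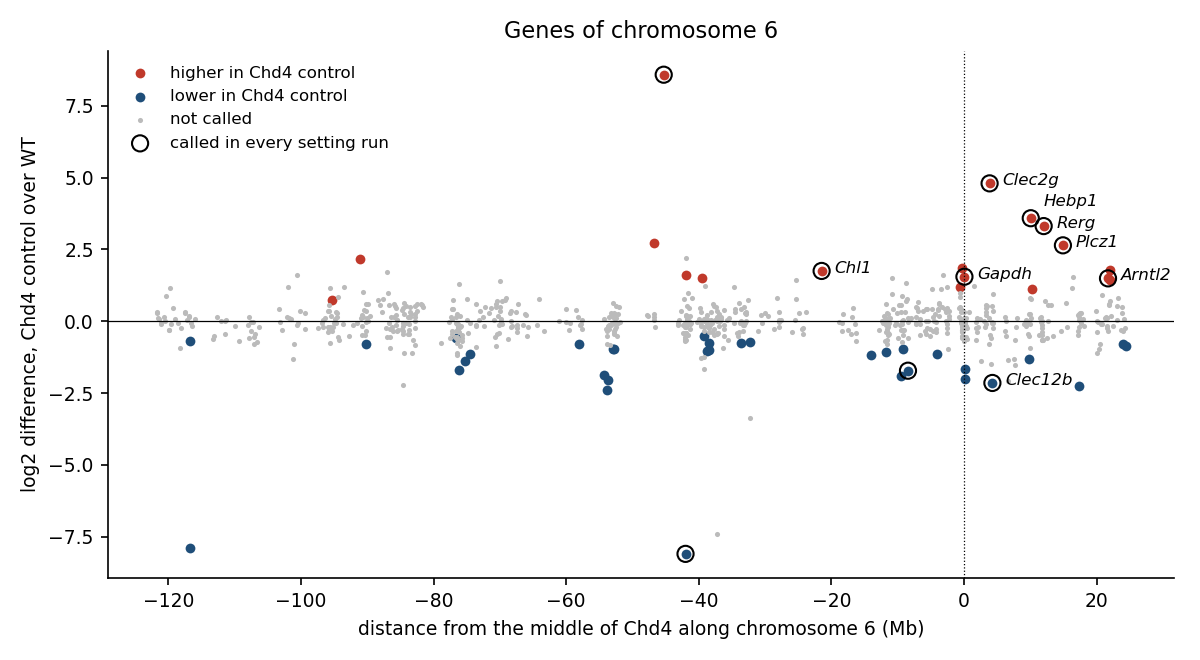
Log2 difference between Chd4 control and WT (vertical axis) of tested genes on chromosome 6 against distance from Chd4 in Mb (horizontal axis), with called genes in colour and rings around those that passed under every alternative, Gapdh with the exception given for it in the text. Clec2g, Hebp1, Rerg and Plcz1 stand high on the far side of the floxed gene, with most of their neighbours near 0.

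Gapdh, a glycolytic enzyme gene near Chd4 and a common reference gene, had 2146, 2112 and 1820.3 CPM in the Chd4 control, 618, 865 and 587 CPM in the Fezf2-set WT and 815, 598 and 664 CPM in the Aire-set WT. The Chd4 control was above all WT libraries, and the log2 difference was 1.55 ± 0.16 (SE; adjusted p = 0.000154). Gapdh is known for many processed pseudogenes in the mouse, so its count depends on how reads that match several places were handled. Gapdh kept its call under all alternatives printed here, but in a recount of reads that match a single place its difference turned negative and did not pass, so no direction is given for it. The other called glycolysis genes, Eno1 and Ldha, were lower at -0.90 (adjusted p = 0.0426) and -0.80 (adjusted p = 0.0243), and 8 of 13 glycolysis genes were stable. Eno1 passed in 11 of 22 alternatives and Ldha in 16. Neither passed without any 1 of the Chd4 control libraries, without library A or C of the Aire-set WT or with exon length as an offset, where Eno1 was near 0. With that offset 5 of the 13 genes were higher and none lower, and without library B of the Fezf2-set WT 5 were lower.

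Annotation was one of the differences that could be read from the tables. The share called was 4.23% among 5656 genes with the same exon length everywhere. It was 6.66% among 2671 genes whose Chd4 table exons were over 1.5 times shorter, 15 higher and 163 lower, with a median log2 difference of -0.114. Among 22 genes whose Chd4 table exons were over 1.5 times longer, the share was 50%. Where no read fell on a gene in 1 set of tables, 73.9% of 23 genes were called. Il11ra2 (ENSMUSG00000078735, chromosome 4, 42656355 to 42661893), a copy of an interleukin 11 receptor gene, had 0, 0 and 0 CPM in the Chd4 control, 29.6, 47.4 and 39.9 CPM in the Fezf2-set WT and 84.6, 95 and 111 CPM in the Aire-set WT. With 3 reads over the group as a floor it was at least 269.5-fold lower in the Chd4 control, and its near-identical copies make the count uncertain. Hspa14_2, a second entry for the Hsp70 family gene Hspa14, had 49.5, 59.1 and 63.3 CPM in the Chd4 control, 0, 0 and 0 CPM in the Fezf2-set WT and 0, 0 and 0 CPM in the Aire-set WT. The WT tables give its exons a length of 0, so no WT exon read could be counted on it. Its call was thus fixed by annotation, and no fold is given. It is still counted among the genes higher and among those that kept their call under every alternative in which they were tested. Olfr1173, Olfr889 and Olfr1459, all olfactory receptor genes, had 0 reads in the Chd4 control and were at least 35.8-fold, 14.5-fold and 11.5-fold lower, each with shorter exons in the Chd4 table.

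Several of the genes with the largest differences at matched exon length have copies elsewhere in the genome with which they can share reads. Rpl10-ps3, a pseudogene of a ribosomal protein gene, had 207, 275 and 238 CPM in the Chd4 control, 4.82, 71 and 7.14 CPM in the Fezf2-set WT and 2.77, 11.9 and 22.8 CPM in the Aire-set WT and differed by 3.70 ± 0.63 (SE; adjusted p = 0.00576). Rps27rt, a retrogene of Rps27, differed by 3.0 ± 0.42 (SE; adjusted p = 0.00176). Rps7, a ribosomal protein gene with processed pseudogenes, had 183, 142 and 315 CPM in the Chd4 control, 632, 1876 and 529 CPM in the Fezf2-set WT and 506, 489.8 and 715 CPM in the Aire-set WT and differed by -1.83 ± 0.40 (SE; adjusted p = 0.0218). Amd2, a copy of an enzyme gene of polyamine synthesis, had 1.96, 0.977 and 1.66 CPM in the Chd4 control, 31, 26.9 and 25.4 CPM in the Fezf2-set WT and 16, 26.9 and 19.6 CPM in the Aire-set WT and differed by -3.96 ± 0.33 (SE; adjusted p = 2.39e-05). Adnp, a homeobox transcription factor and not one of these copies, had 38.3, 32.2 and 40.8 CPM in the Chd4 control, 0.688, 0 and 4.5 CPM in the Fezf2-set WT and 3.7, 0 and 0 CPM in the Aire-set WT. It was at 0 in library B of the Fezf2-set WT and in libraries B and C of the Aire-set WT, and differed by 4.61 ± 0.68 (SE; adjusted p = 0.0024). Whether the low WT counts of Adnp reflect its transcript level or how reads were assigned was not tested. The handling of reads that match several places was not stated, so the counts of these copies are uncertain. In a recount of reads that match a single place Rps7 turned to a positive difference. Rps7 also did not pass without library A or B of the Chd4 control or library C of the Aire-set WT, nor Adnp with DESeq2. Against the Fezf2-set WT alone Rpl10-ps3, Rps27rt and Rps7 did not pass.

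Cct6b, a chaperonin subunit best known from testis, had 50.3, 52.3 and 40.8 CPM in the Chd4 control, 3.9, 3.22 and 2.64 CPM in the Fezf2-set WT and 6.47, 4.66 and 1.98 CPM in the Aire-set WT. Each Chd4 control library was far above each WT library, and the log2 difference was 3.64 ± 0.27 (SE; adjusted p = 7.8e-06). Thbs4, a thrombospondin of tendon and muscle matrix, had 17.1 to 21.8 CPM in the Chd4 control, against 2.73 to 8.73 CPM in the 6 WT libraries, a difference of 1.76 ± 0.31 (SE; adjusted p = 0.00684). Cfap52, of motile cilia, had 12.2 to 13.7 CPM in the Chd4 control, against 1.03 to 5.85 CPM in the 6 WT libraries, a difference of 2.16 ± 0.31 (SE; adjusted p = 0.00198). Pdyn, the precursor of dynorphin peptides, was picked after its values were seen and had 67.8 to 88.4 CPM in the Chd4 control, against 31.7 to 44.3 CPM in the 6 WT libraries, a difference of 1.05 ± 0.15 (SE; adjusted p = 0.00206). Max, the partner of Myc, had 5.31, 7.82 and 18.7 CPM in the Chd4 control, 37.9, 48.8 and 42.1 CPM in the Fezf2-set WT and 38.4, 47.1 and 40.1 CPM in the Aire-set WT. Library C of the Chd4 control was higher than the other libraries of that group but under all WT libraries, and Max differed by -1.98 ± 0.32 (SE; adjusted p = 0.00475). Neither Thbs4 nor Max passed without library B of the Chd4 control, and Cfap52 did not pass against the Fezf2-set WT alone. Zscan4c, Mansc4 and Dppa1 were higher at 2.50 (adjusted p = 0.0204), 1.77 (adjusted p = 0.0361) and 1.72 (adjusted p = 0.0142), and Hist1h2bg, a histone H2B gene, lower at -2.42 (adjusted p = 0.0218). Zscan4c, Mansc4, Dppa1 and Hist1h2bg did not pass without library A or B of the Chd4 control or against the Fezf2-set WT alone.

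The comparison was repeated in libraries that share no sample with it, the Chd4 cKO against the Fezf2 KO and the Aire KO, where strain, run and annotation differ in the same way and the genotypes differ too. There 7044 of 14891 genes were called (47.3%), 3932 higher and 3112 lower in the Chd4 cKO. Of the 229 genes higher in the Chd4 control 220 were tested there, and 171 (77.7%) were called higher and 4 lower. Of the 436 lower genes 435 were tested, and 317 (72.9%) were called lower and 15 higher. With 47.3% of genes called, these shares carry the effects of the deleted genes as well, and how much of each was not tested. Hspa1b had 1216, 1062 and 1936 CPM in the Chd4 cKO, 4609.6, 4770.0 and 4296 CPM in the Fezf2 KO and 7177, 6075 and 6367 CPM in the Aire KO, with the Chd4 cKO lower by the test at a log2 difference of -1.96 ± 0.16 (SE; adjusted p = 3.2e-07). All 12 heat shock genes were lower in the Chd4 cKO. Clec2g had 42.9, 67.3 and 66.9 CPM in the Chd4 cKO, 4.61, 2.17 and 6.99 CPM in the Fezf2 KO and 0.527, 1.43 and 0.525 CPM in the Aire KO, a difference of 4.90 ± 0.29 (SE; adjusted p = 1.48e-08). Cct6b had 39, 42.3 and 43.2 CPM in the Chd4 cKO, 2.58, 1.95 and 0.965 CPM in the Fezf2 KO and 3.95, 1.43 and 2.89 CPM in the Aire KO, a difference of 4.18 ± 0.25 (SE; adjusted p = 1.44e-08). In Hspa1b, Clec2g and Cct6b the direction was thus the one seen between the control groups. Tnf had 73.8, 40.3 and 57.6 CPM in the Chd4 cKO, 48.5, 21.2 and 26.3 CPM in the Fezf2 KO and 93.2, 70.1 and 91.1 CPM in the Aire KO, a difference of 0.12 ± 0.22 (SE; adjusted p = 0.693) that did not pass. Nr4a1 went the other way with 184, 56 and 98.5 CPM in the Chd4 cKO, 93.6, 79.1 and 118 CPM in the Fezf2 KO and 40.3, 41.1 and 29.1 CPM in the Aire KO, a difference of 0.91 ± 0.26 (SE; adjusted p = 0.0116).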

How the data were processed

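The labels' protocols give RNA purification from sorted mTECs on a Maxwell 16 instrument and the SMART-seq v4 kit for library synthesis. The file headers name Ion Torrent barcodes and place all C57BL/6 libraries in 1 sequencing run and all Chd4 libraries in another. The authors deposited 3 tables of counts, from which the total exon reads per gene and library were used as raw counts, per the file headers. Deposited exon lengths and gene positions served as annotation. Another 216 deposited columns with values of single libraries stayed unused. Some of them count reads that match a single place, a larger share in the Chd4 table than in the WT tables. A recount on these was made after seeing the data, and its values are not reported here. The submitters' processing notes name DESeq2, mm10 and GRCm38, without saying which step used them. No source used here gives the aligner, the annotation releases, strand or how reads matching several places were counted.

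Column names show a group and a barcode, with no replicate number. Libraries therefore have a group and no further match to a sample, and the letters A, B and C stand for the order of barcodes. Counts of autosomal gene IDs present in all tables were fitted over the 9 control libraries, with 1 coefficient per group, in edgeR 4.0.16 (R 4.3.3) with TMM normalization, filterByExpr and quasi-likelihood F tests. The log2 difference is Chd4 control minus the mean of the WT groups. P-values were adjusted by the Benjamini-Hochberg method over all tested genes. CPM values use the TMM library sizes. The 9 knockout libraries had a fit of their own. The biological coefficient of variation was 0.245 in the control fit and 0.167 in the knockout fit. Whether triplicates came from separate animals is not stated, so p-values measure only the spread between these libraries. The bound against 0 reads uses 3 reads over the group and covers counting error only.

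The genes and the 39 lists, drawn from general knowledge, were chosen with earlier results of these data known. The rule for named genes took Aire, Fezf2 and Chd4. In each direction it took the 10 largest differences at matched exon length (within 5%) with no overlap of groups and at least 10 CPM, and the 4 largest where exon length differed over 1.5 times. It also took the 10 steadiest stable genes, the 6 called genes of lowest p within 5 Mb of Chd4, and up to 4 called and 2 stable members of each list. Genes with clone-like names were counted and not named, and a few others that the rule took are not reported here. Genes outside the rule are members of a list or are marked as picked after their values were seen. Alternatives used DESeq2 1.42.0, limma 3.58.1, other normalizations, filters and sets of libraries or genes.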

Additional observations from a re-analysis of the deposited data

How the results depend on the processing

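The counts and the named genes were recomputed under 23 alternatives. Over all pairs of a named gene and an alternative, 2742 kept their side of the threshold or had no adjusted p. A further 289 no longer passed and 49 newly passed, and in 3 a gene called as reported reversed. Sign changes of genes not called as reported were not counted as reversals. Such changes occurred, as in Pkm, which ran from -0.51 to 0.53 over the alternatives. The genes higher and lower, 229 and 436, became 438 and 765 with DESeq2, 104 and 239 with all 6 WT libraries as 1 group, 456 and 882 with all 18 libraries fitted, 81 and 132 among 5668 genes of the same exon length, 808 and 1311 against the Aire-set WT alone, 69 and 146 against the Fezf2-set WT alone, and 1066 and 1344 with voom sample weights, the last chosen after seeing that 1 library stands apart. With exon length as an offset 2747 genes were higher, and the median over all genes shifted to 0.232 on the log2 scale. The share of calls that were lower was 65.6% as reported, 55% with upper quartile normalization and 12.8% with the offset. Leaving out 1 library gave 47 to 858 genes higher and 91 to 1200 lower, the lowest without library B of the Chd4 control and the highest without library B of the Fezf2-set WT. The genes called between the WT groups, 231 as reported, became 699 with DESeq2, 136 with voom, and 2 to 671 with 1 library left out, the lowest without library B of the Aire-set WT and the highest without library B of the Fezf2-set WT. Stable genes, 5816 as reported, then numbered 4502 to 7553. The counted reversals came with the offset, for Aire (0.20), Csn2 (1.31) and Slamf1 (0.025). A recount of reads that match a single place, not among the alternatives above, was also run and its values are left out. It called many more genes higher, turned the sign of the called genes Gapdh, Rps7 and Tcf7, called Hspa8, Usp18, Rpl3 and Apoa4 higher, and lost Eno1. The cause of these and the other changes was not tested. No paired analysis was possible because the columns carry no replicate number. Low counts limit genes at 1 to 10 CPM, of which 1.41% could be called stable.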
